A study of Mus musculus with 180 samples.

Results

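The 3 samples treated with Apitolisib were compared with the 6 samples treated with the vehicle DMSO, out of 180 samples in the series. Every sample is a culture of bone marrow-derived macrophages (BMDMs), grown from the marrow of male C57/BL6 mice and carrying no engineered allele, that received a clinical kinase inhibitor (CKI) or DMSO for 1 h and then LPS, the Gram-negative outer membrane component sensed by TLR4, at 10 ng/ml for 2 h. All groups compared here therefore received LPS, and a resting culture was not part of the comparison. The labels place the DMSO samples in 2 sets of 3, called set 1 and set 2 here, without tying a set to a CKI. Apitolisib is an inhibitor of PI3 kinases and of mTOR, which the study chose to target JAK1, at a concentration taken from its binding to JAK1 on kinobeads. A further 3 CKI groups of 3 samples each serve as points of reference, namely Omipalisib and PF04691502, which also inhibit PI3 kinases and mTOR, and Filgotinib, designated as a JAK1 inhibitor. Each CKI was used at its own concentration, so the groups are set side by side and are not matched in dose. Of the 45070 genes in the table, 12714 had a mean normalized value of 10 or more over all samples and were tested.

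PI3 kinases produce a membrane lipid that recruits and activates the kinase AKT, which in turn keeps FOXO transcription factors out of the nucleus and feeds into the kinase complex mTORC1. mTORC1 promotes the synthesis of proteins, ribosomes and lipids, the last through the SREBP factors that switch on genes of cholesterol synthesis. JAK1 is bound to receptors for interferons and for several interleukins and activates STAT factors, so that in LPS-treated macrophages it relays the interferon-β made by the cells themselves into a second wave of interferon-stimulated genes.

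The values are exonic read counts that the authors scaled on little-varying genes and rounded, called normalized values here. They summed to 11292269, 11310796 and 11417881 in the Apitolisib samples and to between 9481416 and 11094387 in the DMSO samples, without overlap (exact permutation test, two-sided p = 0.0238, the smallest that 84 splits allow). The estimated depth was between 11600000 and 13800000 exonic reads in the 3 Apitolisib samples and between 11400000 and 13600000 in the 5 DMSO samples for which it could be estimated. Transcripts encoded by the mitochondrial genome made up 4.04%, 1.49% and 3.25% of the total in Apitolisib replicates 1, 2 and 3, against 0.759% to 1.94% in the 6 DMSO samples. The means were 2.93% ± 1.31 (SD, n = 3) and 1.15% ± 0.438 (SD, n = 6), the ranges overlapped through Apitolisib replicate 2, and the difference was 1.78 percentage points (exact permutation test, two-sided p = 0.0476). When samples were exchanged within replicate numbers only, both p-values were 0.0741, the smallest this block allows. Among the 58 CKIs this mean share ranked 2nd. DMSO set 2 replicate 1, which had the highest share of the 6, and set 2 replicate 2, which had the lowest, often bounded the DMSO range of single genes. The macrophage markers *Csf1r*, the receptor for the growth factor M-CSF, at 24412 to 28253 with Apitolisib and 24416 to 25418 with DMSO, and *Lyz2*, lysozyme, at 95369 to 141880 and 44126 to 131174, were abundant in every sample.

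**Figure D1:**
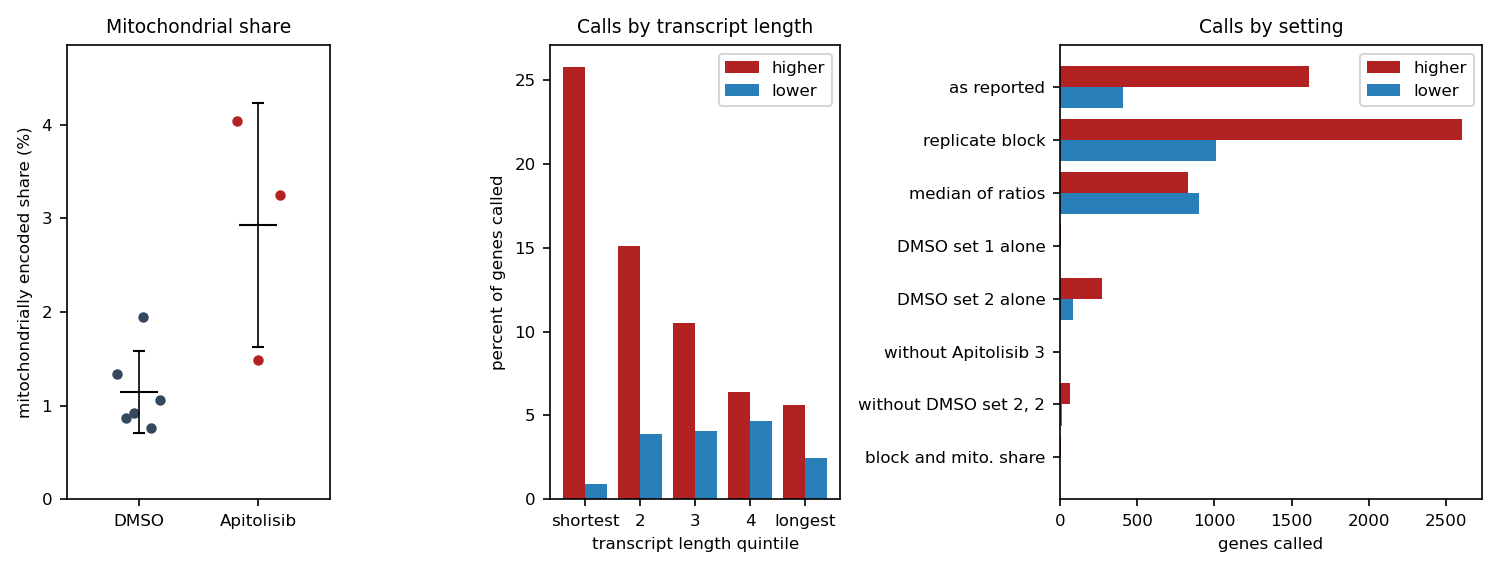
Left, the share of normalized values from mitochondrially encoded transcripts in percent for each sample (dots) with mean and SD (lines), where Apitolisib replicates 1 and 3 lie above all 6 DMSO samples. Middle, the percent of tested genes called higher or lower with Apitolisib in 5 classes of transcript length, which falls from 25.8% to 5.62% for higher genes. Right, the number of genes called under 8 settings, which runs from 2602 higher with the replicate block to 4 with the block and the mitochondrial share.

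Apitolisib was set against DMSO first. A gene was called where limma's adjusted p (Benjamini-Hochberg over all tested genes) was under 0.05. By this rule 1614 genes (12.7% of 12714) were higher and 407 (3.20%) were lower, and 4253 had an unadjusted p under 0.05. The median log2 difference was 0.778 among the higher genes and −0.59 among the lower ones, beside 0.108 over all genes tested. A log2 difference of at least 1 was reached by 464 higher and 37 lower genes. All 3 Apitolisib values lay above the DMSO range for 1509 genes (11.9%) and below it for 448 (3.52%), including 1079 of the higher and 255 of the lower calls. With the replicate number as a block, 2602 genes (20.5%) were higher and 1008 (7.93%) lower, and all 2021 genes of the fit without a block were among them.

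These counts moved with the mitochondrial share and with single samples. With the block and each sample's mitochondrial share in the model, 4 genes (0.0315%) were higher and 1 (0.00787%) was lower, while 2051 had an unadjusted p under 0.05. The share itself had an adjusted p under 0.05 for 7906 genes, 5031 of them rising with it. Without Apitolisib replicate 1, 2 or 3 the calls numbered 994, 654 and 1. Leaving out DMSO set 2 replicate 2 left 83 calls, and leaving out set 2 replicate 1 raised them to 3071. Against set 1 alone 4 genes were called, and against set 2 alone 358. Short transcripts were called higher more often, since 25.8% of the genes in the shortest class (at most 1385 bases) and 5.62% of those in the longest class (at least 4933 bases) were higher, whereas 0.904% and 2.44% were lower. Median transcript length was 1688 bases for higher genes, 3066 bases for lower genes and 2807 bases for all. The part of mitochondrial share and transcript length in the results was not tested beyond these fits. When the samples were scaled once more by the median of ratios, the median log2 difference of all genes moved from 0.108 to −0.004 and 830 genes were higher and 901 lower, so that directions given here are relative to the deposited scaling.

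*Trem1*, *Mmp12* and *Gpr183* were among the 15 largest rises. These were taken only from calls beyond the DMSO range with a mean of at least 50 over the 9 samples. Absence of overlap was therefore a condition for naming them. *Trem1*, a receptor that amplifies inflammatory signalling (chromosome 17, 48232739 to 48246924, mm10), stood at 158, 141 and 131 with Apitolisib and at 57, 52, 45, 54, 25 and 48 with DMSO. Every Apitolisib sample exceeded the highest DMSO sample by a wide margin, and the log2 difference was 1.63 (SE 0.29, limma adjusted p = 0.000977). It was the only gene among those selected by the naming rule that passed with the block and the mitochondrial share (log2 1.28, adjusted p = 0.0373). Genes on the opposite strand overlap *Trem1*, and nothing states that counting distinguished strands.

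*Mmp12*, the macrophage elastase (chromosome 9, 7344397 to 7360461), had values of 1156, 1135 and 1390 against 467, 457, 372, 594, 318 and 351. The groups did not overlap, and the log2 difference was 1.55 (SE 0.31, limma adjusted p = 0.00421). *Gpr183*, an oxysterol receptor that guides cell migration, was at 793, 779 and 1009 against 148 to 490 (log2 1.57, limma adjusted p = 0.00599), also without overlap. Smaller rises, named through their lists, were those of *Egr2* and *Il1b*. *Egr2*, an early growth response factor, was at 536, 309 and 494 against 104 to 233 (log2 1.42, limma adjusted p = 0.00927), and Apitolisib replicate 2 was the lowest of its 3 samples although still above the DMSO range. *Il1b*, the cytokine interleukin-1β, reached 11374, 6806 and 9636 against 2842 to 6751. Its Apitolisib replicate 2 barely passed the highest DMSO sample, set 2 replicate 1, and the log2 difference was 1.23 (limma adjusted p = 0.0323).

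Among the genes selected by the naming rule, the largest rise belonged to *Arl11*, an ARF-like GTPase. It was at 1053, 700 and 847 against 70 to 502 (log2 2.20, SE 0.57, limma adjusted p = 0.0134). The remaining rises of this selection had log2 differences between 1.53 and 1.81. They were *Tspan32*, a tetraspanin, *Irf2bp2*, a partner of IRF2, *Vgll4*, a cofactor of TEAD factors, *Prim1*, the small primase subunit, *Akr1c13*, *Ly6a*, *Ctla2b*, and the pseudogene rows *LOC115486238*, *Gm7867*, *Gm6028* and *Gm6851*. Pseudogene rows and members of multigene families such as *Ly6a*, *Ctla2b* and *Akr1c13* can share reads with near copies and are uncertain. Of all called genes, 286 were pseudogene rows, and protein-coding genes made up 1294 of the higher and 372 of the lower calls.

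*Irf8*, *F3* and *Cmpk2* were among the 15 largest falls, which were named under the same condition. *Irf8*, a transcription factor that specifies monocytes and macrophages and takes part in interferon responses (chromosome 8, 120736358 to 120756694), had values of 1656, 1977 and 1909 with Apitolisib and 3944, 5289, 5012, 3786, 7541 and 3680 with DMSO. The lowest DMSO sample was well above the highest Apitolisib sample, and the log2 difference was −1.36 (SE 0.31, limma adjusted p = 0.00876). *F3*, tissue factor, which starts blood coagulation, was at 43, 48 and 37 against 121, 150, 102, 112, 151 and 85 (log2 −1.45, SE 0.32, limma adjusted p = 0.00787). *Cmpk2*, a mitochondrial nucleotide kinase induced by interferon, was at 5130, 7672 and 5450 against 10614 to 36530 (log2 −1.38, limma adjusted p = 0.0176). By the naming rule no Apitolisib sample reached the DMSO range for any of these genes. The 36530 of *Cmpk2* came from set 2 replicate 2.

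Further genes among the largest falls were *Cnn3*, an actin-binding calponin, with a log2 difference of −1.51, *Traf5*, an adaptor of TNF receptors, with −1.21, *Fgl2*, a fibrinogen-like protein, with −1.08, and *Lipg*, endothelial lipase, with −1.27. *Abtb2*, *Zcwpw2*, *Rcn1*, *Setdb2*, *Zfp282*, *Calhm6*, *Spsb1* and *Rnf139* lay between −1.05 and −1.28. For each of these genes the 3 Apitolisib samples were below all 6 DMSO samples, as the naming rule demands. With the block and the mitochondrial share none of the 15 largest falls was called, and the adjusted p of *F3* was then 0.0904 and that of *Irf8* 0.114.

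**Figure D2:**
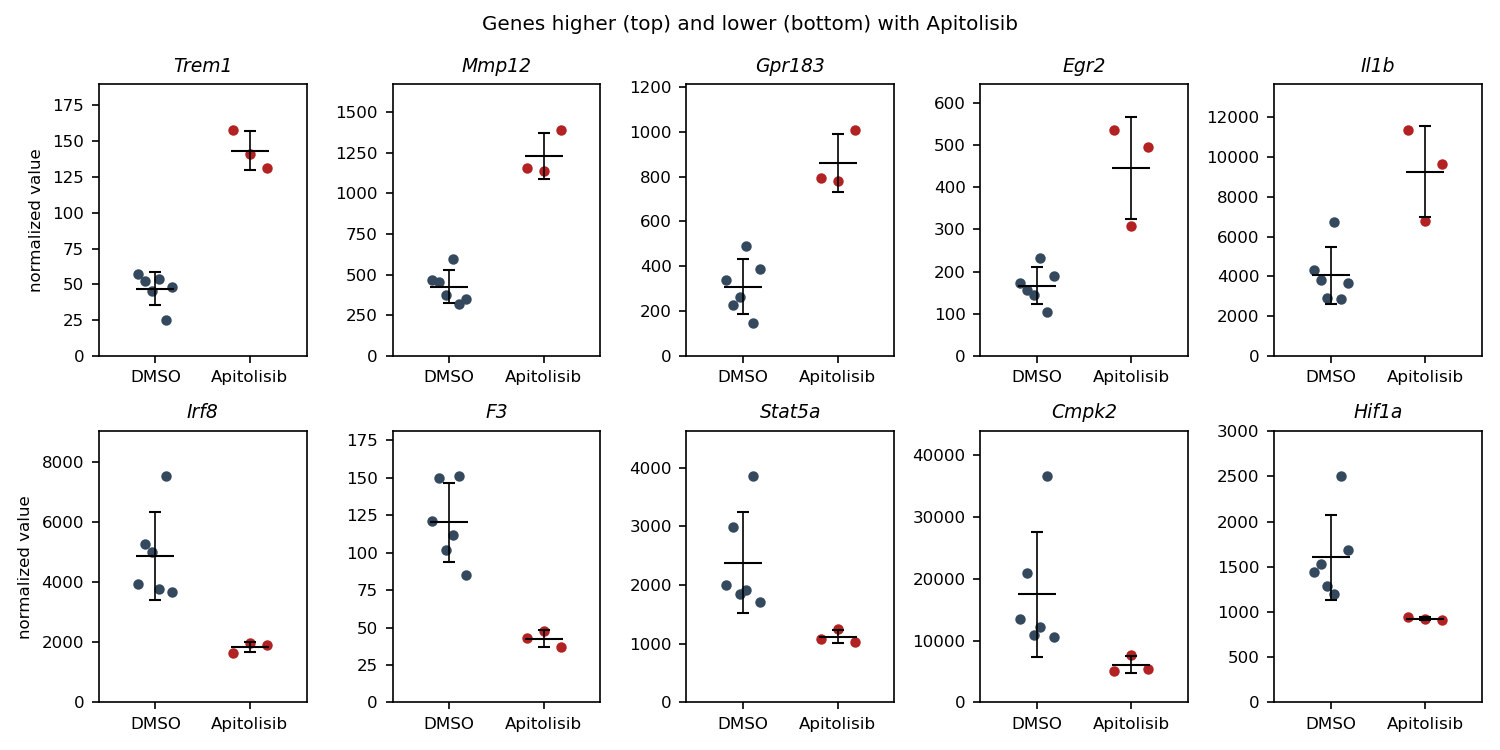
Normalized values (vertical axes from 0) of 5 genes higher and 5 genes lower with Apitolisib, each dot a sample, with mean and SD as lines. The 3 Apitolisib samples lie beyond the 6 DMSO samples in all 10 genes, by the least for *Il1b*, where the lowest Apitolisib value is 6806 and the highest DMSO value 6751.

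Besides *Trem1*, 4 genes were called with the block and the mitochondrial share. They were chosen here after their values were seen. *Frat1*, which binds the kinase GSK3 and promotes WNT signalling (chromosome 19, 41829970 to 41832583), was at 23, 18 and 19 with Apitolisib and at 9, 0, 1, 5, 1 and 1 with DMSO. It was near 0 in most DMSO samples and without overlap, with a log2 difference of 2.90 (SE 0.54, limma adjusted p = 0.00273) that is sensitive to the added 1. Its mean was 54 with PF04691502, 47.3 with Omipalisib and 5.33 with Filgotinib. *Ube2t*, a ubiquitin-conjugating enzyme of the Fanconi anaemia pathway, was at 93, 95 and 94 against 41 to 60 (log2 0.888, limma adjusted p = 0.0116), so that its Apitolisib samples were nearly equal and all above DMSO. *Cdc37l1*, a cochaperone of HSP90, was lower, at 80, 110 and 119 against 162 to 235 (log2 −0.831, limma adjusted p = 0.01), while *Sh3bp5l* overlapped between the groups, at 282, 376 and 427 against 257 to 292 (log2 0.37, limma adjusted p = 0.0255).

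Genes were then grouped into 23 lists by pathway or cell type. Without Apitolisib replicate 3, against DMSO set 1 alone, or with the block and the mitochondrial share, 0 members of these lists were called. Among 27 tested genes of JAK-STAT signalling, 13 (48.1%) were lower and 1 (3.7%) was higher, beside 3.20% and 12.7% of all genes. The median log2 difference was −0.395 beside 0.108 over all genes. Against the same DMSO samples the list had a median of −0.488 with Filgotinib and −0.196 with PF04691502. With Omipalisib it was −0.0363 and with the mean of the other 57 CKIs −0.188. The lower genes included receptors (*Ifnar1*, *Ifnar2*, *Ifngr2*, *Il10ra*, *Il10rb*), transcription factors (*Stat3*, *Stat5a*, *Stat5b*), feedback inhibitors (*Socs1*, *Socs3*, *Cish*) and the phosphatase *Ptpn1*. *Stat5a*, a STAT factor used by GM-CSF and other cytokines, had values of 1073, 1246 and 1035 against 1995, 2993, 1843, 1909, 3857 and 1706. Its Apitolisib samples were all below DMSO (log2 −1.03, SE 0.27, limma adjusted p = 0.0136). *Il10ra*, the ligand-binding chain of the interleukin-10 receptor, was at 3302, 3562 and 3027 against 4206 to 6167 (log2 −0.57, limma adjusted p = 0.0128), and *Ptpn1* was at 1481, 1281 and 1470 against 1736 to 2376 (log2 −0.52, limma adjusted p = 0.0128). *Socs1* varied strongly within both groups, at 795, 980 and 185 against 3582, 2986, 618, 2451, 5735 and 754. Apitolisib replicates 1 and 2 lay above replicate 3 of both DMSO sets, and Apitolisib replicate 3 lay below all DMSO samples (log2 −1.95, SE 0.55, limma adjusted p = 0.0184). *Jak1* itself was at 1806, 1791 and 1518 against 1463 to 3575 and was not called (log2 −0.33, adjusted p = 0.143), and the only higher member was *Ptpn6*, the phosphatase SHP-1 (log2 0.23).

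The summed normalized values of the JAK-STAT list were 56086 to 63812 with Apitolisib and 72422 to 107055 with DMSO, without overlap. The number of lower members was 14 with the replicate block, 15 with the median of ratios and 13 with the trend of transcript length removed. Lower calls over all genes rose from 407 to 1008, 901 and 856 in these fits. The list had 8, 6 and 0 lower members without Apitolisib replicate 1, 2 and 3, beside 131, 167 and 0 of all genes. It had 0 without DMSO set 2 replicate 2 and 3 against DMSO set 2 alone, beside 15 and 84 of all genes.

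**Figure D3:**
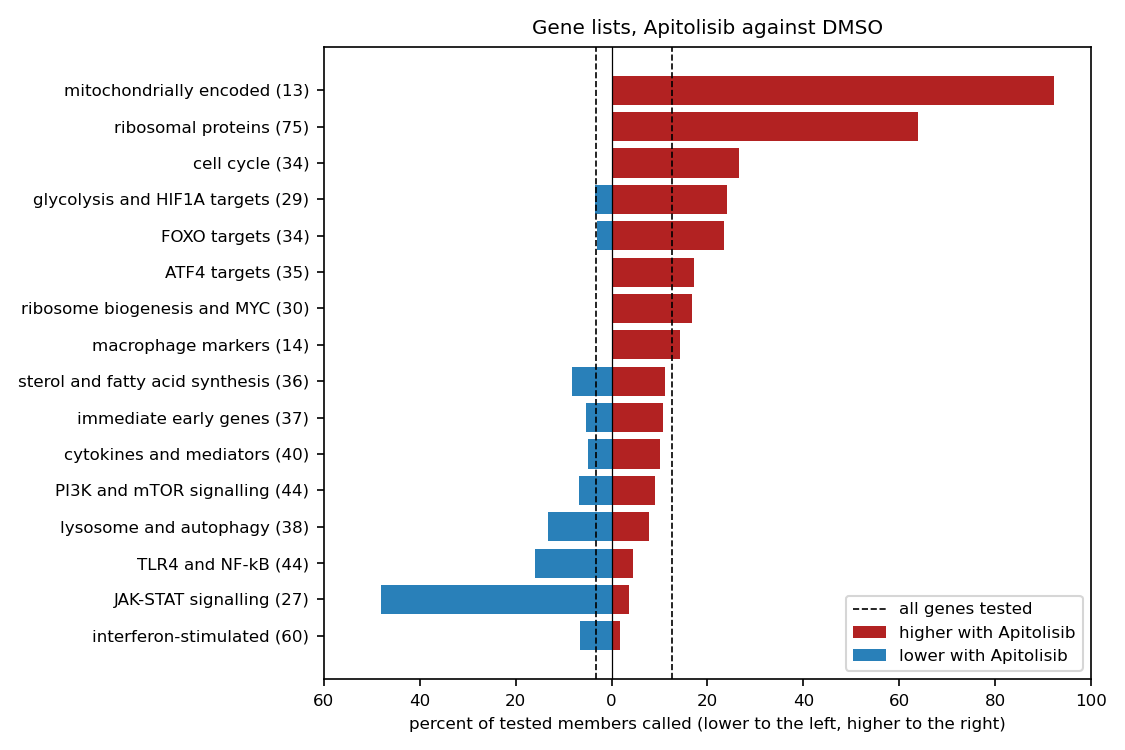
Percent of the tested members (their number in parentheses) of 16 lists called higher (right) or lower (left) with Apitolisib against DMSO, with dashed lines at the 12.7% and 3.20% of all genes tested. The JAK-STAT list has the most members to the left, 13 of 27, and the mitochondrially encoded and ribosomal protein lists the most to the right, 12 of 13 and 48 of 75.

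Of 60 tested interferon-stimulated genes, 1 (1.67%) was higher and 4 (6.67%) were lower against DMSO, beside 12.7% and 3.20% of all genes, with a median log2 difference of 0.127. With the replicate block 5 were higher and 5 lower, beside 20.5% and 7.93% of all genes. The lower genes were *Cmpk2*, *Irf1*, *Tor3a* and *Ifih1*, and the higher one was *Ifnb1*, the gene of interferon-β itself. *Irf1*, an early transcription factor of the interferon response, was at 6870, 9139 and 7735 against 12037, 13120, 11802, 11146, 14275 and 10687 (log2 −0.62, SE 0.19, limma adjusted p = 0.0223), without overlap. *Ifih1*, which encodes the RNA sensor MDA5, was at 2477, 2726 and 2233 against 2953 to 7149 (log2 −0.82, limma adjusted p = 0.0223). *Ifnb1* was at 242, 200 and 298 against 129, 99, 75, 262, 79 and 86. A single DMSO sample, set 2 replicate 1, lay within the Apitolisib range (log2 1.15, SE 0.40, limma adjusted p = 0.0384). *Rsad2*, the antiviral enzyme viperin, was at 17771, 21527 and 16605 against 18749 to 36278 and was not called (log2 −0.61, adjusted p = 0.123). Without Apitolisib replicate 1 or 3, or without DMSO set 2 replicate 2, 0 of the 60 were called.

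Of 40 tested cytokines and mediators, 4 (10%) were higher, namely *Il1b*, *Cxcl1*, *Ebi3* and *Arg2*, and 2 (5%) were lower, *F3* and *Edn1*, shares near the 12.7% and 3.20% of all genes. The median log2 difference was 0.501, beside 0.108 over all genes. *Cxcl1*, a neutrophil-attracting chemokine, was at 1014, 1068 and 1218 against 622 to 786 (log2 0.70, limma adjusted p = 0.0168), with all Apitolisib samples above DMSO. *Edn1*, which encodes the vasoconstrictor endothelin-1, was at 249, 252 and 201 against 357 to 566 (log2 −0.93, limma adjusted p = 0.0352), with all below. The other cytokines of most interest in LPS-treated macrophages were not called. *Tnf* was at 7920, 12648 and 13611 against 6668 to 8932 (adjusted p = 0.22), *Il10* at 2265, 1462 and 1804 against 639 to 2089 (adjusted p = 0.16), and *Il12b* at 2620, 2227 and 2818 against 1282 to 1936 (adjusted p = 0.0892). *Il12b* did not overlap between the groups. The replicate block raised the cytokine calls to 10 higher and 3 lower, beside 20.5% and 7.93% of all genes. In that fit *Il10* had a limma adjusted p of 0.0317. Without DMSO set 2 replicate 2 the list had 0 higher and 1 lower call.

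In the TLR4 and NF-κB list of 44 tested genes, 2 (4.55%) were higher and 7 (15.9%) lower (median log2 −0.0171). These shares stood beside 12.7% and 3.20% of all genes. The lower ones included *Map3k8*, the kinase TPL2 that links TLR4 to ERK, *Nfkb2* and *Relb*, subunits of the alternative NF-κB dimer, *Myd88*, the adaptor of TLR4, and *Tnfaip3*, the feedback inhibitor A20. *Map3k8* was at 1527, 1644 and 1481 against 1870 to 2436, without overlap (log2 −0.50, limma adjusted p = 0.0224), whereas *Tnfaip3* overlapped, at 4601, 3817 and 3169 against 3424 to 9371 (log2 −0.57, limma adjusted p = 0.0224). Among 37 immediate early genes 4 (10.8%) were higher and 2 (5.41%) were lower, near the shares of all genes (median log2 0.169), with *Egr2*, *Btg2*, *Dusp6* and *Ier5* higher and *Atf3* and *Csrnp1* lower. *Btg2*, an antiproliferative factor, was at 346, 283 and 372 against 135 to 213 (log2 1.01), and *Atf3*, a stress-induced repressor, at 4609, 5085 and 4767 against 5695 to 8642 (log2 −0.47), neither with overlap. Without DMSO set 2 replicate 2 the NF-κB list had 0 calls and the immediate early list 1.

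Of 44 tested genes of the PI3K and mTOR machinery, 4 (9.09%) were higher and 3 (6.82%) lower, beside 12.7% and 3.20% of all genes, with a median log2 difference of 0.0217. The higher genes were the catalytic subunit *Pik3ca*, the autophagy lipid kinase *Pik3c3*, the receptor *Igf1r* and the AKT-related kinase *Sgk1*, and the lower ones were *Akt2*, the regulatory subunit *Pik3r5* and *Sgk3*. *Sgk1* was at 1663, 1791 and 1777 against 1259 to 1479 (log2 0.38, SE 0.13, limma adjusted p = 0.0312), and *Pik3c3* at 198, 185 and 185 against 115 to 149 (log2 0.52, limma adjusted p = 0.0109). Both were above all DMSO samples. *Akt2*, one of the AKT kinases, was at 817, 790 and 831 against 892 to 1247 (log2 −0.32, limma adjusted p = 0.0186), below all of them. The 7 calls rose to 14 with the replicate block and fell to 2, 1 and 0 without Apitolisib replicate 1, 2 and 3 and to 1 without DMSO set 2 replicate 2.

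FOXO target genes were taken as a readout on the AKT side. Of 39 listed, 34 were tested, and *Klf2*, with a mean of 7.41 over all samples, was among the 5 below the filter. The 8 genes *Bcl6*, *Txnip*, *Foxo3*, *Foxo4*, *Cited2*, *Tsc22d3*, *Igf1r* and *Gabarapl1* (23.5%) were higher and *Sod2* (2.94%) was lower. These shares stand beside 12.7% and 3.20% of all genes. The median log2 difference was 0.27 against 0.108 over all genes. *Txnip*, which restrains glucose uptake, had values of 958, 898 and 1025 against 628, 597, 448, 749, 352 and 494. All Apitolisib samples exceeded DMSO (log2 0.86, SE 0.22, limma adjusted p = 0.0128), although an antisense gene overlaps *Txnip*. *Bcl6*, a transcriptional repressor, was at 526, 334 and 422 against 107 to 319 (log2 1.28, limma adjusted p = 0.01). *Tsc22d3*, which encodes the glucocorticoid-induced protein GILZ, was at 110, 119 and 116 against 63 to 96 (log2 0.64, limma adjusted p = 0.0305). Other classical members did not pass the test. *Irs2*, an insulin receptor substrate, was at 87, 53 and 82 against 19 to 52 (adjusted p = 0.0577, and 0.0212 with the replicate block), *Sesn1*, a sestrin, at 305, 255 and 339 against 187 to 387 (adjusted p = 0.657), and *Pik3ip1*, a PI3K inhibitor, at 15, 37 and 34 against 23 to 49 (adjusted p = 0.422). The higher calls numbered 2, 3 and 0 without Apitolisib replicate 1, 2 and 3 and 0 without DMSO set 2 replicate 2.

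Genes of sterol and fatty acid synthesis, the SREBP targets, showed both directions. Of 36 tested, 4 (11.1%) were higher and 3 (8.33%) lower, beside 12.7% and 3.20% of all genes. The higher genes were *Nsdhl*, *Ebp*, *Fdps* and *Mvk* and the lower ones *Cyp51*, *Insig1* and *Hsd17b7*. The median log2 difference was −0.0429. *Cyp51*, lanosterol demethylase, was at 862, 855 and 863 against 1207, 1199, 1280, 999, 1242 and 1264. The Apitolisib samples were almost equal and all below DMSO (log2 −0.47, SE 0.12, limma adjusted p = 0.0122). *Hmgcs1*, the cytosolic HMG-CoA synthase at the start of the mevalonate pathway, was at 1863, 1687 and 1557 against 2310, 2055, 1721, 2151, 1604 and 1985. Its groups overlapped and the difference was not called (log2 −0.20, SE 0.13, adjusted p = 0.255). Without DMSO set 2 replicate 2 the list had 0 higher and 1 lower call.

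The promoters of *Txnip* and *Hmgcs1* are shown as examples of a FOXO target and of a sterol gene, both described above, whose upstream bases hold a match to the motif of their list. Both sequences are the 250 bases upstream of the gene start on the plus strand of GRCm38.p6, from RefSeq, with the match to the FOXO motif TGTTTAC on either strand, or to the sterol element TCACNCCAC on either strand, in capitals.
Txnip, chr3:96557707-96557956: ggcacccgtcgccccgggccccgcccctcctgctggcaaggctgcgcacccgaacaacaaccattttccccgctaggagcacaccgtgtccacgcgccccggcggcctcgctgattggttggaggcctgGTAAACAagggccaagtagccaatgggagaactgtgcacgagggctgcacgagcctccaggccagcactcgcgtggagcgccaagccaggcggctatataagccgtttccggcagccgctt
Hmgcs1, chr13:119690101-119690350: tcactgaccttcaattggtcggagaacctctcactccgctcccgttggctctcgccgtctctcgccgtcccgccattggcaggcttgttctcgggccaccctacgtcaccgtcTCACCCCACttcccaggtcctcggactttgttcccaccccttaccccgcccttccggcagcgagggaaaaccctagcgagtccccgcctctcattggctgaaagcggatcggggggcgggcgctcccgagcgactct
In *Txnip* the match begins at −121 from the gene start and lies on the minus strand, and in *Hmgcs1* it begins at −137. Over windows of 300 bases around the start, the FOXO motif was found in 4 of 28 FOXO target promoters, beside 2.617% of the 9132 promoters of tested genes, and the sterol element in 1 of 27 sterol gene promoters, beside 0.986%. These matches describe letters and were not related to any measurement of factor binding.

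Apitolisib was then compared directly with Omipalisib, in the same fit. Apitolisib was higher for 849 genes (6.68%) and lower for 1235 (9.71%), and with the block and the mitochondrial share for 1356 (10.7%) and 1742 (13.7%). With the block alone the counts were 1444 and 1583, so that adding the share lowered the first and raised the second. Against PF04691502 they were 67 (0.527%) and 87 (0.684%), 179 and 186 with the block, and 229 (1.80%) and 221 (1.74%) with the block and the share. Against Filgotinib they were 854 (6.72%) and 62 (0.488%), 1395 and 139 with the block, and 1307 (10.3%) and 136 (1.07%) with the block and the share. The mean mitochondrial share was 1.81% with Omipalisib, 2.69% with PF04691502 and 1.84% with Filgotinib, beside 2.93% with Apitolisib. Without Apitolisib replicate 3 the counts of the fit without extra terms fell to 1268, 58 and 513 against Omipalisib, PF04691502 and Filgotinib. They fell to 1286 without Omipalisib replicate 3, 72 without PF04691502 replicate 1 and 505 without Filgotinib replicate 1. All 4 CKIs are set against the same 6 DMSO samples, so their differences from DMSO are not independent, whereas the direct comparisons do not use DMSO.

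Part of the sterol list was higher with Apitolisib than with both other PI3K and mTOR inhibitors. Of the 36 tested, 15 were higher with Apitolisib than with Omipalisib and 0 lower, beside 6.68% and 9.71% of all genes. Against PF04691502, 8 were higher and 0 lower, beside 0.527% and 0.684%. With the block and the mitochondrial share 18 and 9 were higher, beside 10.7% and 1.80% of all genes, and 0 were lower. Without these terms the median log2 difference was 0.43 and 0.28, beside 0.0351 and 0.0256 over all genes. *Hmgcs1* was at 507, 501 and 461 with Omipalisib and 1083, 917 and 1046 with PF04691502, below every Apitolisib and DMSO sample. The log2 difference of Apitolisib was 1.79 from Omipalisib (SE 0.15, limma adjusted p = 8e-20) and 0.74 from PF04691502 (SE 0.15, limma adjusted p = 0.00056). *Cyp51* gave the same order, at 259, 244 and 242 with Omipalisib and 524, 509 and 509 with PF04691502, a log2 difference of 1.79 and 0.74 (limma adjusted p = 4.4e-22 and 0.00016).

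*Idi1*, the isomerase that makes the building block of isoprenoids, and *Msmo1*, a sterol methyl oxidase, were added after their values were seen. *Idi1* was at 1014, 1011 and 1096 with Apitolisib, 608, 459 and 621 with PF04691502 and 316, 344 and 259 with Omipalisib, while DMSO lay between 835 and 1261. The 3 CKI groups did not overlap, Apitolisib lay within the DMSO range, and its log2 difference was 1.77 from Omipalisib (SE 0.20, limma adjusted p = 2.1e-12) and 0.90 from PF04691502 (SE 0.20, limma adjusted p = 0.0043). *Msmo1* was at 1110, 1173 and 1140 with Apitolisib, 609, 607 and 519 with PF04691502 and 305, 318 and 226 with Omipalisib (log2 2.02 and 0.98 for Apitolisib less each). Against Filgotinib, 1 of the 36 sterol genes was higher with Apitolisib and 1 lower, beside 6.72% and 0.488% of all genes. In this comparison *Hmgcs1*, *Cyp51* and *Idi1* had limma adjusted p-values of 0.48, 0.671 and 0.742. Their log2 differences were −0.21, −0.13 and 0.16 (SE 0.15, 0.14 and 0.20).

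Of the FOXO targets, more were lower than higher with Apitolisib. Of 34, 10 were lower and 1 was higher with Apitolisib than with Omipalisib, beside 9.71% and 6.68% of all genes. Against PF04691502, 7 were lower and 0 higher, beside 0.684% and 0.527%. With the block and the mitochondrial share 15 were lower and 3 higher than with Omipalisib, beside 13.7% and 10.7% of all genes. Against PF04691502 the counts were then 10 and 0, beside 1.74% and 1.80%. *Tsc22d3* was at 347, 416 and 264 with Omipalisib and at 295, 241 and 208 with PF04691502, all above the 110 to 119 of Apitolisib (log2 −1.54 and −1.09, limma adjusted p = 3e-07 and 0.0045). *Ccng2*, an unconventional cyclin and classical FOXO target chosen here after its values were seen, was at 492, 425 and 363 with Apitolisib, inside the 367 to 584 of DMSO except for its lowest sample. With Omipalisib it was at 1398, 1345 and 1302 and with PF04691502 at 1297, 882 and 1022. Its log2 difference was −1.67 from Omipalisib (SE 0.21, limma adjusted p = 2.1e-10) and −1.31 from PF04691502 (SE 0.21, limma adjusted p = 7e-06). *Txnip* was at 1953, 1700 and 1709 with PF04691502, without overlap with Apitolisib (log2 −0.89, limma adjusted p = 0.0472), and at 1546, 1600 and 1056 with Omipalisib (log2 −0.52, adjusted p = 0.152, and 0.0028 with the block and the mitochondrial share). *Gabarapl1*, an autophagy protein, was at 1083, 1026 and 970 with Apitolisib, 1707, 1602 and 1338 with PF04691502 and 2689, 2799 and 2461 with Omipalisib. *Sesn1* was the exception, with 78, 116 and 51 in Omipalisib samples against 255 to 339 with Apitolisib (log2 1.93, limma adjusted p = 4.6e-06).

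Against Filgotinib, 6 of the 34 FOXO targets were higher with Apitolisib and 1 lower, beside 6.72% and 0.488% of all genes. *Txnip* was at 456, 512 and 368 with Filgotinib (log2 1.12, limma adjusted p = 0.0011), *Tsc22d3* at 57, 70 and 54 (log2 0.93, limma adjusted p = 0.0073) and *Ccng2* at 236, 268 and 199 (log2 0.86, limma adjusted p = 0.0035), each below all Apitolisib samples. *Sgk1* ordered the 4 CKIs in a similar way, at 615, 625 and 540 with Filgotinib, 1663 to 1791 with Apitolisib, 1958, 1835 and 1654 with PF04691502 and 3938, 4399 and 2631 with Omipalisib. Its difference between Apitolisib and PF04691502 was within the spread (log2 −0.06, SE 0.15, adjusted p = 0.986), while those from Filgotinib (log2 1.56, limma adjusted p = 5.9e-16) and Omipalisib (log2 −1.03, limma adjusted p = 7.6e-09) were larger than it.

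**Figure D4:**
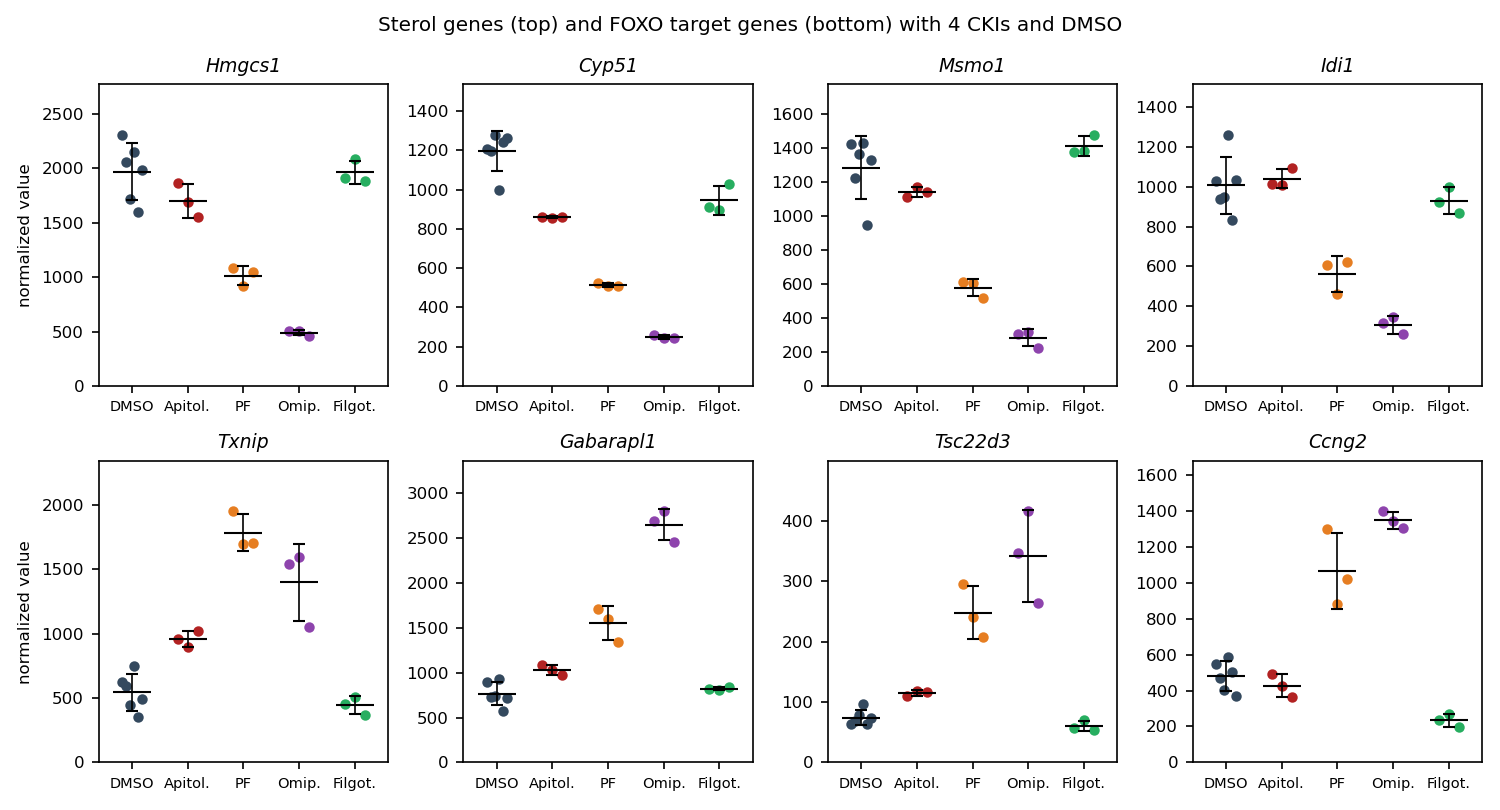
Normalized values (vertical axes from 0) of 4 sterol genes (top) and 4 FOXO target genes (bottom) in DMSO, Apitolisib (Apitol.), PF04691502 (PF), Omipalisib (Omip.) and Filgotinib (Filgot.) samples, each dot a sample, with mean and SD as lines. For *Idi1*, Apitolisib samples lie at 1011 to 1096, PF04691502 samples at 459 to 621 and Omipalisib samples at 259 to 344, and for *Ccng2* Apitolisib samples lie at 363 to 492 and Omipalisib samples at 1302 to 1398.

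A minority of interferon-stimulated genes and cytokines passed the test between Apitolisib and Omipalisib, most of them as lower with Apitolisib. Of 60 interferon-stimulated genes 14 were lower and 0 higher (29 and 0 with the block and the mitochondrial share), and of 40 cytokines and mediators 15 were lower and 2 higher (23 and 2), beside 9.71% lower and 6.68% higher of all genes (13.7% and 10.7%). *Rsad2* was at 85142, 71241 and 92964 with Omipalisib, far above the 16605 to 21527 of Apitolisib (log2 −2.16, SE 0.33, limma adjusted p = 1.3e-07). *Ifnb1* was at 1727, 2207 and 726 (log2 −2.52, SE 0.46, limma adjusted p = 9.5e-06), again without overlap. *Ccl2*, a monocyte-attracting chemokine, was at 6231, 7220 and 7540 with Apitolisib and 27618, 31115 and 27303 with Omipalisib (log2 −2.04, SE 0.14, limma adjusted p = 2e-25). These 3 genes were not called between Apitolisib and PF04691502. *Rsad2* was at 33955, 20441 and 20522, *Ifnb1* at 425, 151 and 125 and *Ccl2* at 6380, 6079 and 6467 with PF04691502, with adjusted p-values of 0.887, 0.971 and 0.909. Of the 60 interferon-stimulated genes, 1 was higher with Apitolisib than with PF04691502 and 0 lower, and 0 of the 40 cytokines differed (limma). Few genes of any kind were called in this comparison, 0.527% higher and 0.684% lower of all genes. With the block and the mitochondrial share 3 cytokines were called, beside 1.80% and 1.74% of all genes.

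Against Filgotinib, 9 of the 60 interferon-stimulated genes were higher with Apitolisib and 0 lower, beside 6.72% and 0.488% of all genes. With the block and the mitochondrial share they were 13 and 0, beside 10.3% and 1.07%. The median log2 difference without these terms was 0.761, beside 0.158 over all genes. *Mx2*, an antiviral GTPase, was at 1647, 1613 and 1867 with Apitolisib and 805, 657 and 468 with Filgotinib (log2 1.44, SE 0.37, limma adjusted p = 0.0052). *Iigp1*, an immunity-related GTPase, was at 201, 231 and 228 against 53, 35 and 27 (log2 2.54, SE 0.64, limma adjusted p = 0.0048). *Ccl5*, a T-cell-attracting chemokine, was at 10749, 13695 and 13573 against 5235, 5027 and 4831 (log2 1.32, limma adjusted p = 0.0093). None of these 3 genes overlapped between the CKIs, and the DMSO samples lay between 1031 and 2847 for *Mx2*, 131 and 595 for *Iigp1* and 6638 and 13115 for *Ccl5*. *Rsad2* (15351, 11488 and 11473 with Filgotinib) and *Irf1* (6994, 5416 and 7310) had adjusted p-values of 0.375 and 0.545. In the JAK-STAT list 2 genes were higher with Apitolisib than with Filgotinib and 0 lower, and *Stat5a* was at 1289, 1053 and 1454 with Filgotinib (log2 −0.17, SE 0.31, adjusted p = 0.841).

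**Figure D5:**
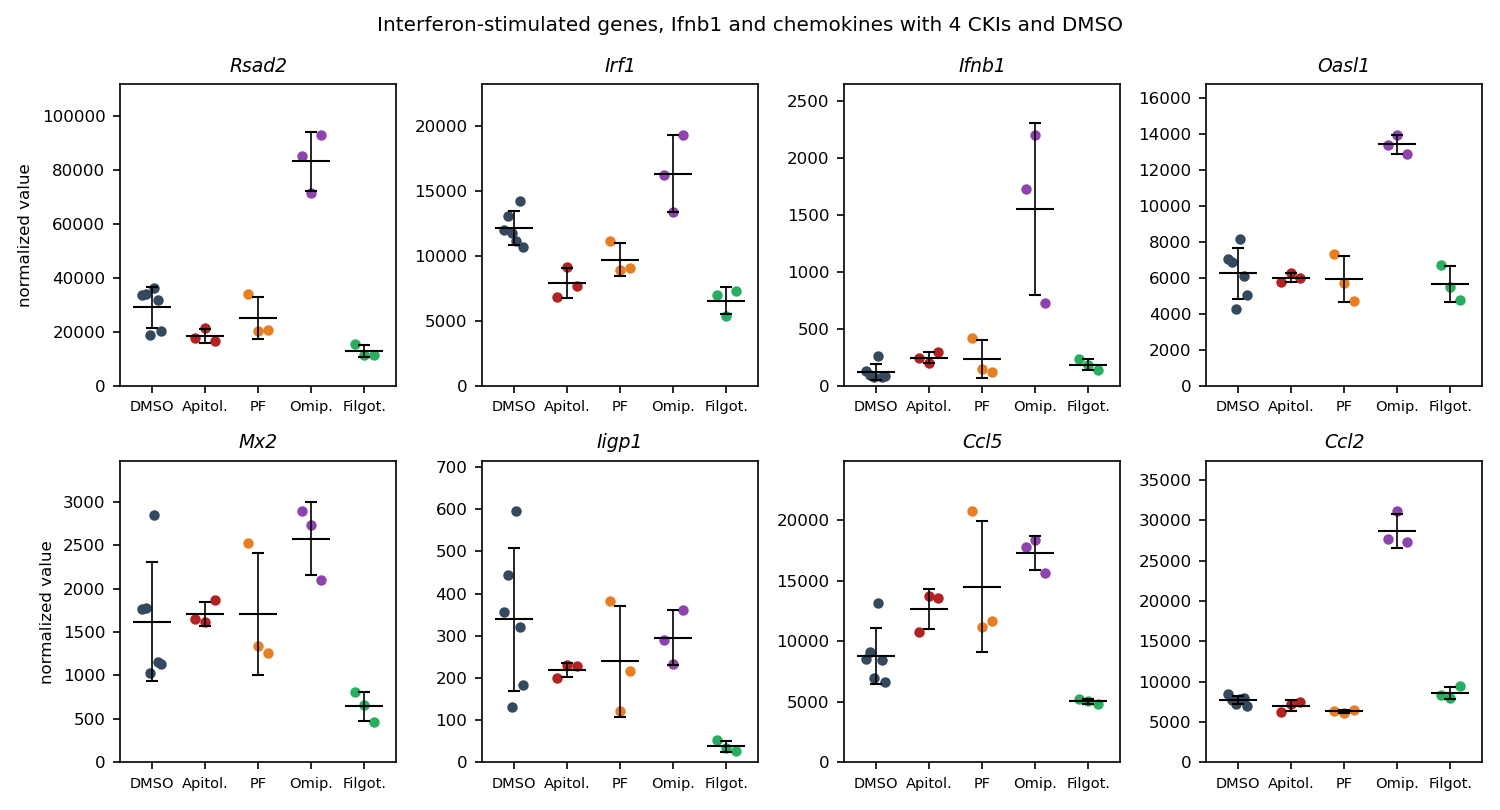
Normalized values (vertical axes from 0) of interferon-stimulated genes, *Ifnb1* and chemokines in DMSO, Apitolisib (Apitol.), PF04691502 (PF), Omipalisib (Omip.) and Filgotinib (Filgot.) samples, each dot a sample, with mean and SD as lines. Omipalisib samples stand highest for *Rsad2*, at 71241 to 92964, and Filgotinib samples lowest for *Mx2*, at 468 to 805, while Apitolisib samples lie at 16605 to 21527 and 1613 to 1867.

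Lists of growth and metabolism were read beside the 12.7% of all genes that were higher and the 3.20% that were lower against DMSO. Of 75 tested ribosomal protein genes 48 were higher and 0 lower, with a median log2 difference of 0.491. The rise was not particular to Apitolisib. Against DMSO the median of this list was 0.574 with Omipalisib, 0.558 with PF04691502 and 0.541 with Filgotinib. With the mean of the other 57 CKIs it was 0.305. *Rps26*, *Rps3*, *Rps10* and *Rpl28* had the smallest p-values of the list. *Rps3*, part of the small subunit, was at 7219, 8356 and 9378 against 4430 to 6603 (log2 0.58, limma adjusted p = 0.0128), without overlap. Ribosomal protein transcripts are short and have many near copies. With the trend of transcript length removed 8 were higher, and *Rps26* and *Rpl28* changed sign, while with the median of ratios 16 were higher, and without Apitolisib replicate 2 or 3 or without DMSO set 2 replicate 2 there were 6, 0 and 2. In the 13 mitochondrially encoded genes, whose summed share is given above, 12 were higher (median log2 1.78), with *CYTB*, cytochrome b, at 18200, 6497 and 16182 against 1515 to 6806, so that replicate 2 was within the DMSO range. None of the 13 was called without Apitolisib replicate 1 or 3 or without DMSO set 2 replicate 2.

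Of 34 cell cycle genes 9 (26.5%) were higher and 0 lower (median log2 0.283). *Tk1*, thymidine kinase, was at 1095, 1362 and 1363 against 310 to 747 (log2 1.23, SE 0.34, limma adjusted p = 0.018), and *Gins2*, a subunit of the replicative helicase, at 325, 498 and 500 against 226 to 270 (log2 0.77, limma adjusted p = 0.0068). *Aurka* and *Cdk1*, kinases of mitosis, were higher by 0.65 and 0.49. None of these 4 genes overlapped with DMSO. Against Omipalisib 8 of the 34 were also higher with Apitolisib and 0 lower, beside 6.68% and 9.71% of all genes. The count against DMSO was 9, 2 and 0 without Apitolisib replicate 1, 2 and 3 and 1 without DMSO set 2 replicate 2.

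Among 29 genes of glycolysis and HIF1A targets 7 were higher and 1 was lower (median log2 0.231). The glycolytic enzymes *Tpi1* (log2 0.97), *Pgk1* (log2 0.57) and *Aldoa* (log2 0.29) were higher, whereas *Hif1a*, the transcription factor that raises them under low oxygen, was lower, at 940, 926 and 908 against 1438, 1531, 1288, 1196, 2501 and 1684 (log2 −0.75, SE 0.21, limma adjusted p = 0.0169). Its Apitolisib samples were nearly equal and all below DMSO. With the median of ratios 2 members were higher and 3 lower, and without Apitolisib replicate 2 or 3 or without DMSO set 2 replicate 2 there were 0 higher.

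In the list of 35 ATF4 targets, the amino acid response that mTORC1 also feeds, 6 (17.1%) were higher and 0 lower (median log2 0.0712), *Ddit3*, *Nupr1*, *Nars*, *Sars*, *Psph* and *Slc3a2*, and *Asns*, asparagine synthetase, was at 227, 352 and 406 against 217 to 442 (adjusted p = 0.836). Of 30 genes of ribosome biogenesis 5 (16.7%) were higher and 0 lower (median log2 −0.0558), and *Myc* was at 574, 392 and 493 against 212 to 398 (adjusted p = 0.0895). Of 38 lysosome and autophagy genes 3 (7.89%) were higher, among them *Ctsl*, cathepsin L, and 5 (13.2%) were lower, among them *Mcoln1*, a lysosomal calcium channel, at 177, 199 and 132 against 229 to 445 (log2 −0.76, limma adjusted p = 0.0128), for a median log2 difference of −0.0523. Without DMSO set 2 replicate 2, 0 members of these 3 lists were called.

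Markers of other cell types were followed in the same samples, and in such bulk cultures fewer cells of a type and less RNA per cell cannot be told apart. The 10 neutrophil markers summed to 829 to 1331 with Apitolisib and 274 to 943 with DMSO. Of 7 tested 1, *Camp*, was higher, at 62, 46 and 57 against 7 to 35, and with the replicate block *Ngp*, *S100a8* and *S100a9* were higher too, for a median log2 difference of 1.27. These markers also moved with the comparisons between CKIs. With Apitolisib 6 of the 7 were higher than with Omipalisib (median log2 1.93), beside 6.68% of all genes. Against PF04691502, 2 were higher (median log2 1.495), beside 0.527% of all genes. Both counts were 6 with the block and the mitochondrial share, beside 10.7% and 1.80% of all genes, while 0 of the 7 were called against Filgotinib. *Ly6g*, the defining neutrophil marker, was at 1, 1 and 0. The 14 macrophage markers summed to 198173 to 262190 against 111983 to 237267, with *Cd68* and *Cx3cr1* higher, and 6 of the 14 higher with the replicate block. In both the neutrophil and the macrophage list 14.3% of the tested members were higher, near the 12.7% of all genes. With the replicate block 20.5% of all genes were higher. Of 7 B-cell markers 4 were at 0 in all 9 samples, including *Cd79a*, and the sum was 21 to 48 against 6 to 35. T and NK cell markers summed to 33 to 48 against 29 to 122, dendritic cell markers to 153 to 170 against 93 to 158, erythroid and platelet markers to 25 to 44 against 7 to 26, mast cell markers to 1 to 2 against 0 to 5 and stromal markers to 40 to 60 against 28 to 180. Of the 8 tested genes of these 6 lists 0 were called (limma), 3 had an unadjusted p under 0.05, and *Cd79b*, a chain of the B-cell receptor complex, was higher with the replicate block (adjusted p = 0.0223). The part of these markers in the other results was not tested.

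Apitolisib was last set against the mean of the other 57 CKIs in the same fit. No gene was called (limma), 1646 had an unadjusted p under 0.05, and 1 gene was called, as lower, with the replicate block. The median log2 difference over all genes was 0.0438. Against the same DMSO samples, the mean of the other 57 CKIs was also higher for all 1614 genes called higher with Apitolisib. It was also lower for 405 of the 407 called lower. Its median log2 difference was 0.354 and −0.294 in these genes, beside 0.778 and −0.59 with Apitolisib. The changes against DMSO are thus largely shared in direction with the other CKIs. By number of genes called against DMSO, Apitolisib ranked 8th of 58, between AZD2014 with 2490 and PF04691502 with 1663, while Omipalisib had 3264 and Filgotinib 2637.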

How the data were processed

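RNA from the 180 BMDM samples was copied by SMART-seq2 from polyA transcripts and cut with Tn5. The authors mapped reads on mm10 using TopHat2 2.1.1, kept 1 alignment per read, removed blacklisted regions with bedtools 2.29.2, counted exonic reads on curated RefSeq genes, scaled each sample on little-varying genes and deposited the rounded values, treated here as a score without a fixed unit. They tested them with DESeq2 in R 3.6.2 without its normalization. A count test was not run here, because scaling and rounding hide the whole reads of many genes.

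Here limma 3.58.1 (R 4.3.3) was fitted to log2(normalized value + 1) of all 59 groups with a variance trend, without a block, for the 12714 genes with a mean of at least 10, and p-values were adjusted by Benjamini-Hochberg with a threshold of 0.05. Log2 differences understate the change of low genes. Single values were compared by exact permutation tests. In a simulation drawn from these genes, 10.5%, 70% and 96.5% of 200 changed genes were found at log2 differences of 0.5, 1 and 2, with 1, 8 and 8 false calls. Each simulated gene varied independently, without the shared effects of replicate number or mitochondrial share. The simulation therefore cannot give the number of false calls in the real samples. The depth was estimated from the scale that rounding leaves in the whole numbers, which gave a value for 8 of the 9 samples. On 7 simulated samples it gave a scale for 6, with a largest error of 0.026%. The SEs come from limma's estimate of the spread between samples, and the SDs are taken across samples. The depths are given without an interval. The summaries and plots were made with Python 3.11.15, NumPy 2.4.6, pandas 2.3.3 and matplotlib 3.10.9.

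Groups come from the labels, and 0 columns lacked a sample. The methods speak of independent biological replicates. Same-numbered samples deviated together (correlations of their deviations between Apitolisib and DMSO of 0.23 to 0.443 in 6 pairs), so the replicate numbers were taken to pair the samples and the blocked values are given. The members, lists and alternatives were chosen with earlier results of these data known. The genes named are the 15 largest rises and falls among calls beyond the DMSO range with a mean of at least 50 over the 9 samples, up to 4 genes of each list with the smallest p, and a set named whatever its values. Exceptions are stated. Promoters are those of RefSeq on GRCm38.p6. Values of antisense genes and near copies are uncertain, as nothing states that counting distinguished strands. The alternatives are listed with their effects at the end. The fit of Apitolisib against DMSO with the block and the mitochondrial share was planned. The fits with that share alone, with transcript length and with Apitolisib replicate 2 alone, the block with the share in the direct comparisons of CKIs, and the comparison with the other 57 CKIs were added after seeing the data. The authors' own comparisons were not used. Some genes are not reported here.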

Additional observations from a re-analysis of the deposited data

Results flagged for a closer look

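Of 117 genes and sample measures checked, 14 (11.966%) had 1 DMSO sample far from the other 5, by a gap over 0.625 of the whole range. For independent, normally distributed values about 1 in 20 would pass this cutoff. The genes checked share the same DMSO samples, and many were selected by their DMSO range. The 11.966% therefore cannot be read against that rate. In 10 of them that sample was DMSO set 2 replicate 1 and in 4 it was set 2 replicate 2. Set 2 replicate 1 was highest for *Arl11* (502, gap 0.63 of the range), *Gm7867* (98, 0.81), *Ly6a* (1792, 0.675), *Ctla2b* (670, 0.676), *Gm6851* (179, 0.651), *Ddit3* (76, 0.741), *Foxo3* (68, 0.647), *Ngp* (370, 0.703) and *Ifnb1* (262, 0.711), and lowest for *Cyp51* (999, 0.712). Set 2 replicate 2 was highest for *Hif1a* (2501, 0.626), *Mcoln1* (445, 0.736) and *Col1a1* (98, 0.644) and lowest for *Pgk1* (1836, 0.662). Without set 2 replicate 1 the number of genes called against DMSO rose from 2021 to 3071, and without set 2 replicate 2 it fell to 83. The cause was not tested.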

How the results depend on the processing

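For Apitolisib against DMSO, the calls (2021, of which 1614 higher and 407 lower) numbered 1243 (1057 and 186) with no filter, 751 (678 and 73) when only the groups compared were fitted, 501 (464 and 37) at a log2 difference of at least 1, 358 (274 and 84) against DMSO set 2 alone, 4 (4 and 0) against set 1 alone, 6 (5 and 1) with the mitochondrial share in the model, and 5 (4 and 1) with the share and the replicate block. With Apitolisib replicate 2 alone, assumed to vary like the other groups, 0 genes (0 and 0) were called by limma, also with the block, and 1399 had an unadjusted p under 0.05. The replicate block alone gave 3610 (2602 and 1008). Another scaling or a length correction changed the balance, to 830 and 901 with the median of ratios (47.9% of calls higher, against 79.9%), to 711 and 856 with the trend of transcript length removed, and to 3671 calls, 1952 of them lower, when this was done with the block. Pseudocounts of 0.5 and 10, a filter at 50, a filter over the 9 samples and no variance trend kept each count within 1.5 times. Leaving out samples gave 0 to 3071 calls (0 to 2350 higher, 0 to 721 lower), with 0, 2380 and 7 without all samples of replicate 2, 1 and 3. The difference in total (1082330) and in mitochondrial share (1.78 points) kept its size. Within replicate numbers the exact permutation p of both was 0.0741, the smallest possible there, so that test could not fall under 0.05. Against Omipalisib the 2084 calls ranged from 1268 to 1897 when a sample was left out. The 154 calls against PF04691502 became 365 with the block and 450 with the mitochondrial share and the block, and 58 to 148 without a sample (78 without Apitolisib replicate 2 and 100 without PF04691502 replicate 2). The 916 against Filgotinib became 1534 and 1443, 601 with the median of ratios, and 505 to 912 without a sample (593 without Apitolisib replicate 2 and 585 without Filgotinib replicate 3). Against the other 57 CKIs the 0 calls became 1 with the block. Of the 91 genes named by the rule and called against DMSO, 91 were called with the block, 78 with the median of ratios, 74 with the length trend removed, 34 against set 2 alone, 16 without set 2 replicate 2, 1 without Apitolisib replicate 3 and 0 against set 1 alone. The sign changed for *Rps26* (−0.0671) and *Rpl28* (−0.129) with the length trend removed, alone and with the block. The cause was not tested.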
